A study of Mus musculus with 12 samples.

Results

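The genes described here are 41 that copy DNA or carry cells from G1 into S phase, 41 of the 20432 genes in the expression table of 6 mouse pancreatic ductal adenocarcinoma cell lines. They were taken as a named list covering origin licensing, the helicase, polymerases, nucleotide synthesis, cyclin E and E2F, and the placing of chromatin on new DNA. All 41 were present in the table, and all 41 reached the expression minimum for testing (1 CPM, counts per 1e+06 reads, in at least 6 libraries) as did 12734 genes in all.

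Each line, named 52205, 52419, 52424, 53105, 53369 or 53371, gave 1 library of Cre cells and 1 library of parental cells, so there were 6 libraries of each kind. Cre cells are labelled JAK1 knockout: the parental line had been infected with the retrovirus pBabe-Cre-puro and kept in rising concentrations of puromycin. Parental cells are labelled wild type and stand for the line before that treatment. All lines grew in the same serum-containing DMEM medium with antibiotics. Cultures infected with an empty virus were not analysed here, so infection, puromycin selection, time in culture and loss of JAK1 cannot be told apart in any difference given below. With a single library per line and condition, p-values tell how similar the lines were in their change and not how repeatable it was within 1 line.

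JAK1 is a tyrosine kinase that relays cytokine and interferon signals to STAT transcription factors. Jak1 itself had 104 to 234 CPM in Cre cells and 125 to 207 CPM in parental cells, a log2 difference of -0.045 ± 0.089 (SE, limma adjusted p = 0.838). It was higher in Cre cells of 2 of 6 lines. The table gives 1 value per gene, so a loss of single exons would not show in it. Libraries held 11.5 to 18.0 M reads in genes (M, 1e+06), and 1 read was worth 0.0569 to 0.0896 CPM. Summed epithelial markers (Krt7, Krt8, Krt18, Krt19, Epcam, Cdh1, Sox9, Muc1) reached 359.9 to 13204 CPM in Cre cells and 445 to 12569 CPM in parental cells. In line 52419 the keratin gene Krt8, the junction gene Cdh1 and Epcam were under 1 CPM in both libraries, and Krt7 and Muc1 had at most 1.49 CPM. Other markers were present there: Krt18 had 188 CPM in Cre cells and 253 CPM in parental cells. Sox9 had 149 CPM in Cre cells and 171 CPM in parental cells, and Krt19 19.9 CPM in Cre cells and 15.5 CPM in parental cells. Summed leukocyte markers stayed at 1.72 to 9.68 CPM in Cre cells and 1.99 to 23.5 CPM in parental cells.

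DNA replication is prepared in G1, when the origin recognition complex together with Cdc6 and Cdt1 loads the Mcm2 to Mcm7 helicase onto origins. Cyclin E with its kinase partner then helps to fire the origins, Cdc45 and the GINS complex join the helicase, and polymerases copy both strands while ribonucleotide reductase and thymidylate synthase supply the building blocks. Most of these genes are known targets of E2F transcription factors, which the retinoblastoma protein holds back until late G1, so their transcripts mark proliferating cells and stay low in resting ones.

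Words of the kind that E2F factors bind lay in a larger share of the promoter windows of these genes than of tested genes at large. RefSeq promoter windows (GRCm38.p6, from 250 bases before to 50 bases after a gene's start) were matched by symbol for 34 of the 41 genes. Each window was searched on both strands for the 4 E2F words TTTGGCGC, TTTCCCGC, TTTGCCGC and TTTCGCGC, which can overlap each other. At least 1 word lay in a window of 15 of the 34 genes (44.1%), against 4.77% of the 9793 tested genes with a window. Counting only words that lie wholly before the start, the numbers were 9 of the 34 genes (26.5%), against 3.98% of tested genes. At least 2 words lay in windows of 5 of the 34 genes (14.7%), against 0.225% of tested genes. The 4 sequences below hold the upstream part of such windows, 5′ to 3′ on the gene's strand, with the E2F words in capitals. They are the windows with a word before the gene's outermost RefSeq start and with most of the 250 bases lying before that start. The forms among them are 1 word, a pair of overlapping words on opposite strands, and a window with several.
Gins3, chr8:95633309-95633558, plus strand: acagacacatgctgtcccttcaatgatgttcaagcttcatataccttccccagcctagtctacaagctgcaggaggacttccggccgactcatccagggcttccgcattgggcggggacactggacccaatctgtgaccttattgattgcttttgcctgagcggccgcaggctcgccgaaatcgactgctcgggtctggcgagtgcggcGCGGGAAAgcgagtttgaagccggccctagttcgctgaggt
Mcm5, chr8:75109259-75109467, plus strand: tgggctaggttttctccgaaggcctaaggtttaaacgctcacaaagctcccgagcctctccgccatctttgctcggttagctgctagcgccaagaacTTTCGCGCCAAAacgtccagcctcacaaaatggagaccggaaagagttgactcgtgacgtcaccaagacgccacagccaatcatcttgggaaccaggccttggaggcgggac
Mcm6, chr1:128359706-128359955, minus strand: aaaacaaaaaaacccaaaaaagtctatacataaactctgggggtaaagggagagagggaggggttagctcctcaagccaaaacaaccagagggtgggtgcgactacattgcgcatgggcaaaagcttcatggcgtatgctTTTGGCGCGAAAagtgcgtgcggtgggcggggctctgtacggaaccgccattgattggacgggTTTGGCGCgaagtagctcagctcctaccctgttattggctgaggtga
Rfc3, chr5:151651209-151651458, minus strand: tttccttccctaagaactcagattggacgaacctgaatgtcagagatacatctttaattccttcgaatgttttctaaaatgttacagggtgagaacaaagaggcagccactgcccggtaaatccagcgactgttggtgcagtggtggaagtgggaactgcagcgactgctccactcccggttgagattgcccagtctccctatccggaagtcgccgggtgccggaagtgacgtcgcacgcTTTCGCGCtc

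Positions are counted from the outermost RefSeq start of each gene, so -1 is the base just before it and the last base printed. In Gins3 the word, read on the opposite strand, covers the bases from -41. In Mcm5 the words begin at -112 and -108 and overlap. In Mcm6 an overlapping pair begins at -110 and -106, and another word follows at -47. In Rfc3 the word begins at -10, and a second one, not shown, begins at the start itself. A match of letters is a description and not a measured site.

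Promoters of mitosis genes held another word. The word TTTGAA, the core of the cell cycle homology region of late cell cycle promoters, lay in windows of 14.7% of the 34 members, 72.0% of the 25 mitosis genes with a window and 14.1% of tested genes. E2F words lay in windows of 4.0% of those mitosis genes. The CCAAT word was common everywhere, at 58.8% of members and 43.6% of tested genes. The 15 members with an E2F word had a median log2 change between Cre and parental cells, described next, of 0.43, and the 19 without one 0.48.

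In Cre cells the replication genes lay above parental cells on the whole, by an amount that varied from line to line. All 41 fitted log2 changes (Cre minus parental, on log2(CPM + 0.5), with CPM as deposited) were above 0, against 49.9% of the genes tested. The median over the members was 0.43 and the range 0.094 (Gins4) to 1.04 (Rrm2). No member passed the adjusted threshold of 0.05 in either direction (0 of 41 higher, with 0.0% of tested genes called higher and 0.0236% called lower). The smallest limma adjusted p of a member was 0.208, for Fen1, and the largest 0.654, for Ccne1. At an unadjusted p under 0.05, 28 of 41 were higher, against 6.96% of tested genes, and 0 of 41 were lower, against 8.18%. The 28 became 12 without line 52424, 17 without 52419, 17 without 53371 and 1 without the block for line. Of these settings, the share of tested genes was computed only without 53371, and is given below. The edgeR quasi-likelihood test on the recovered reads called 0 of 41 higher (0.0% of tested genes), and DESeq2 also called 0 of 41 (0.487% of tested genes). These are bulk cultures, in which a larger share of cycling cells and more RNA of these genes per cell cannot be told apart.

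The difference was largest in line 53371, and its median was close to 0 in line 53105. With 1 pair per line, differences between lines were not tested. In Cre cells of 53371 the median member was 2.93-fold above parental cells (log2 1.55), and 41 of 41 were higher. In 52424 the median was 0.61 with 39 of 41 higher. Lines 52419 (0.30, 41 of 41) and 52205 (0.28, 36 of 41) followed with smaller differences. In 53369 the median was 0.10 with 34 of 41 higher. In 53105 it was -0.038, and 14 of 41 were higher. Of all genes tested, 50.5% were higher in Cre cells of 52205, 51.6% of 52419, 50.3% of 52424, 49.0% of 53105, 51.1% of 53369 and 47.1% of 53371. All genes tested had medians between -0.029 (53371) and 0.011 (52419) in the same lines.

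**Figure D1:**
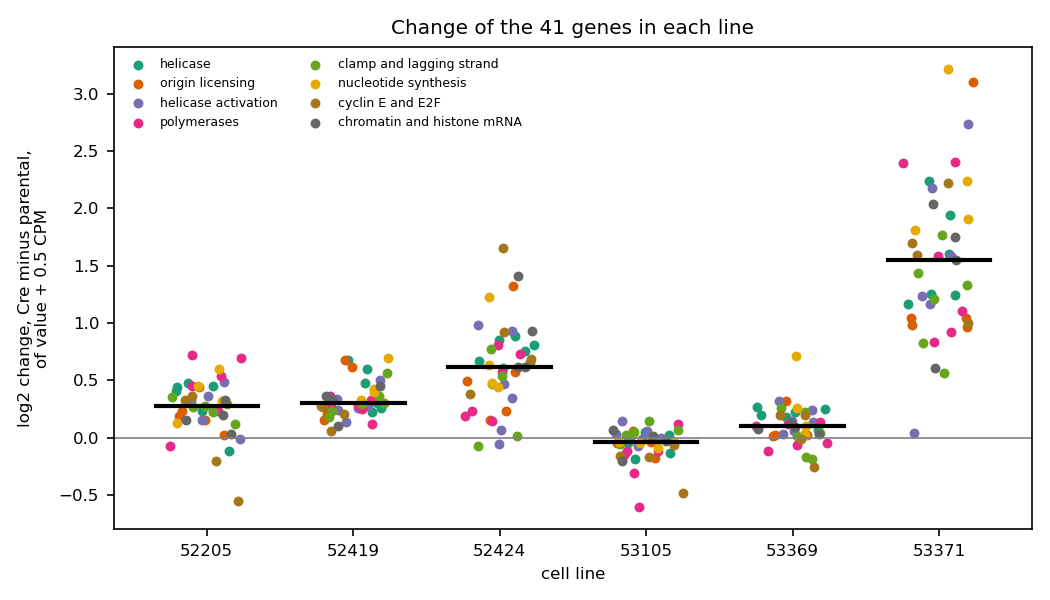
Log2 difference of each of the 41 genes, Cre minus parental, on the vertical axis for the 6 cell lines on the horizontal axis; each point is 1 gene coloured by role and each bar is the median over the 41. The bars lie between -0.038 in 53105 and 1.55 in 53371, and every point of 53371 and 52419 lies above 0.

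A difference of more than 2-fold upward in Cre cells was seen in 32 of 41 members in 53371, against 4.36% of tested genes there. It was seen in 4 of 41 in 52424 (2.45% of tested genes), namely Ccne2, Uhrf1, Cdc6 and Rrm2. It was seen in 0 of 41 in 52205 (0.573% of tested genes), 52419 (0.487%), 53105 (1.55%) and 53369 (0.699%). The 9 members that stayed under 2-fold in 53371 were Orc6, Cdt1, Gins4, Pola2, Pold1, Rfc3, Rfc4, E2f1 and Slbp, with log2 differences of 0.040 (Gins4) to just under 1.

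Most members were not higher in every line, though the share that was exceeded that of tested genes. In Cre cells 10 of 41 members were above parental cells in all 6 pairs (4.11% of tested genes), and 0 of 41 were below in all 6 (4.56% of tested genes). The 10 were Mcm2, Mcm5, Mcm7, Orc6, Gins2, Rfc5, Fen1, Lig1, Uhrf1 and Chaf1a. A further 24 members were higher in 5 pairs, 4 in 4 pairs and 3 in 3 pairs. Line 53105 was the usual exception: 30 members were higher in all of the other 5 lines, and 20 of the 30 were not higher in 53105. That line was picked from these same values, and the share of tested genes higher in the other 5 was not computed. Among the 10, the log2 difference in 53105 ran from 0.0033 (Mcm7) to 0.15 (Fen1), far below their differences in 53371.

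**Figure D2:**
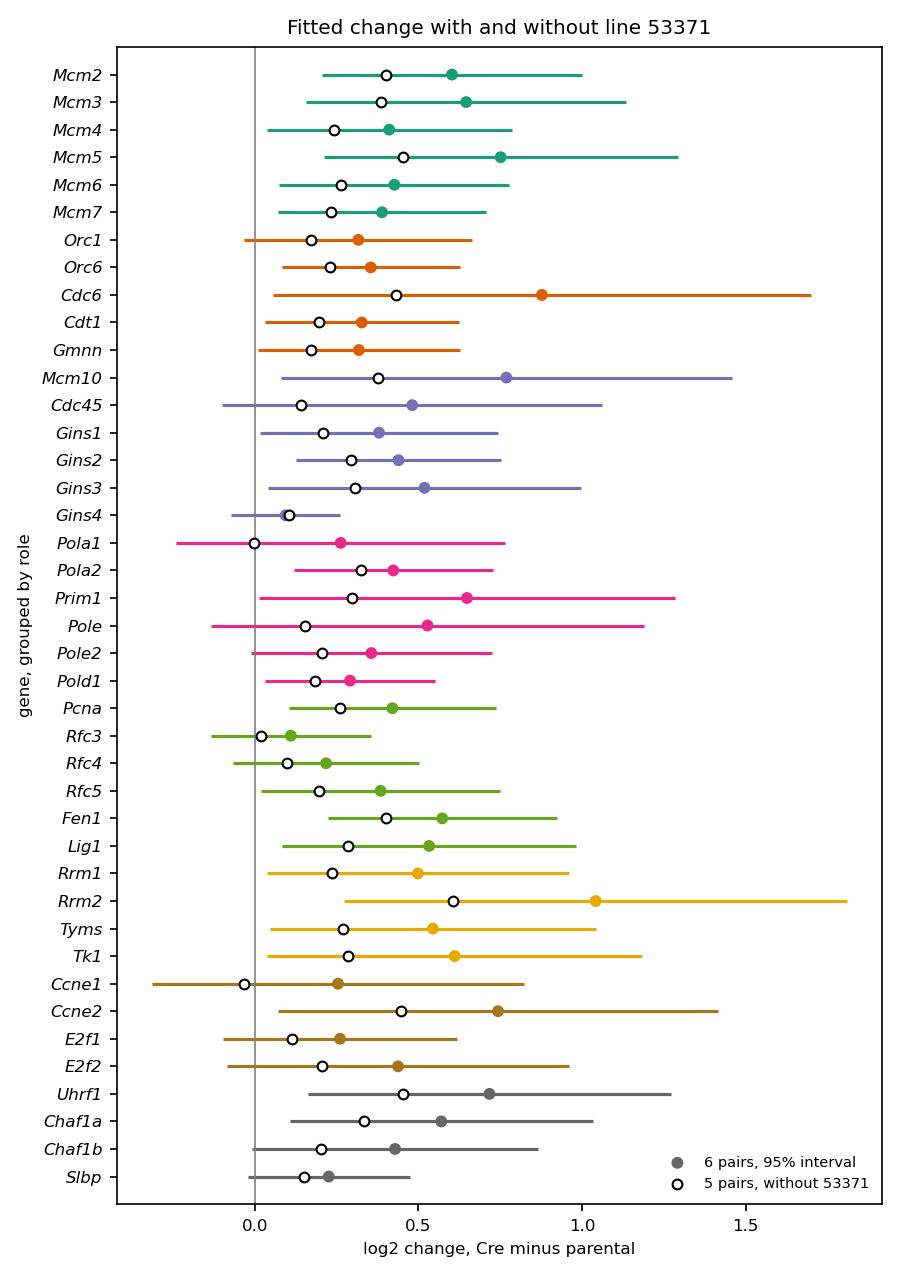
Fitted log2 change of each of the 41 genes, Cre minus parental; filled points with bars are the estimate and its 95% interval over 6 pairs, and open points the estimate over 5 pairs without line 53371. All filled points lie above 0, and the open points lie to the left of the filled ones for every gene except Gins4.

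Leaving out line 53371 lowered the median change to 0.24, and 39 of 41 estimates stayed above 0, against 51.0% of tested genes. The exceptions were Pola1, at -0.0022, and Ccne1, at -0.034. At an unadjusted p under 0.05, 17 of 41 members were then higher, against 4.66% of tested genes. In all 5 remaining pairs 10 of 41 were higher (5.42% of tested genes), and limma adjusted p ran from 0.290 upward. With 52424 left out as well, the median was 0.18 and 8 members were higher at an unadjusted p under 0.05, a setting chosen after seeing the data. The share of tested genes was not computed for that setting, so the 8 cannot be set against it.

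The large difference in 53371 came with low values in its parental library. Parental 53371 had the lowest value of all 12 libraries for 40 of the 41 members, against 11.0% of tested genes. Gins4 was the exception, with its lowest value in parental 52419. Cre 53371 lay within the range of the other Cre libraries for 36 of 41 members (82.7% of tested genes). The 5 outside it were Mcm5, Cdt1, Prim1 and Pold1, just below the range, and Orc1, just above. On the log2 scale the median member of parental 53371 differed by -1.37 from the median of the other parental libraries, and that of Cre 53371 by -0.18 from the other Cre libraries. The members took 0.297% of reads in Cre 53371 and 0.0998% in parental 53371. In the other lines they took 0.274% to 0.552% in Cre cells and 0.207% to 0.433% in parental cells. The depth of the pair was alike, 11.8 M reads in Cre 53371 and 13.1 M in parental 53371. Summed epithelial markers were 8740 CPM in Cre 53371 and 6388 CPM in parental 53371, and summed leukocyte markers 5.75 CPM in Cre 53371 and 5.99 CPM in parental 53371; their part in the result was not tested.

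**Figure D3:**
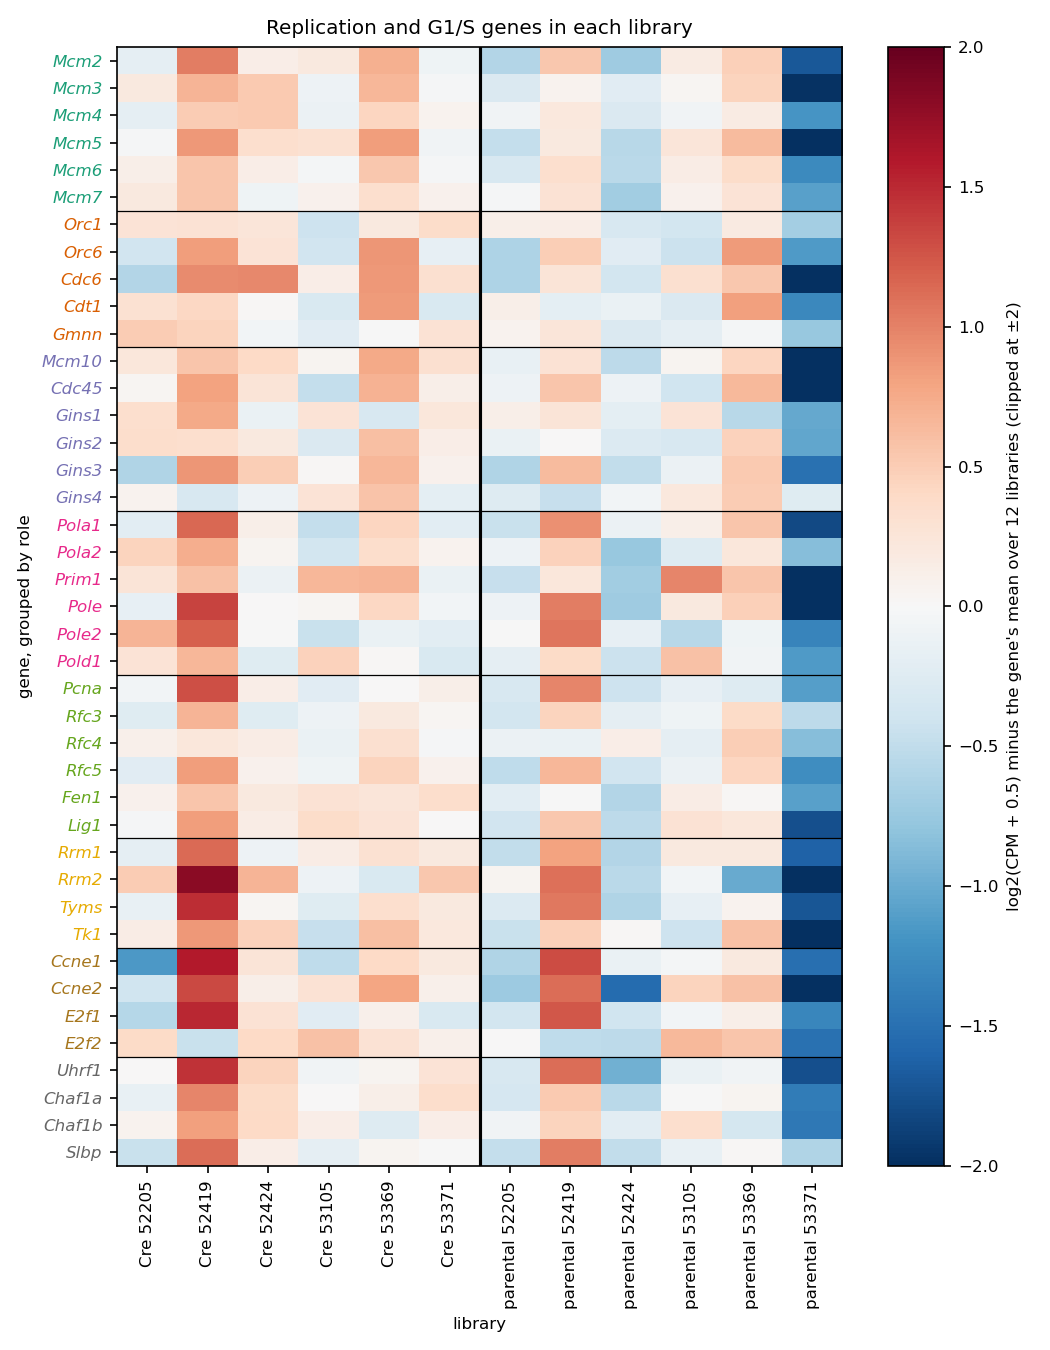
Level of each of the 41 genes (rows, grouped by role) in the 12 libraries (columns, Cre on the left and parental on the right), as log2(CPM + 0.5) minus the gene's own mean over the libraries, with colours clipped at 2 either way. Parental 53371 is the darkest blue column, with a median of -1.40, while Cre 53371 has a median of 0.084.

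The spread between lines was smaller in Cre cells. The SD of log2 levels over the 6 lines was smaller in Cre cells for 41 of 41 members, against 51.8% of tested genes, with medians of 0.39 in Cre cells and 0.78 in parental cells. Without 53371 it was smaller in Cre cells for 21 of 41 members (45.7% of tested genes), with medians of 0.43 in Cre cells and 0.48 in parental cells. Cre 52419 had the highest value of the 12 libraries for 29 of 41 members, against 14.2% of tested genes.

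Values in the paragraphs that follow are CPM in lines 52205, 52419, 52424, 53105, 53369 and 53371, in that order. Changes are limma estimates over the 6 pairs with the SE and the p adjusted over all genes tested. Fitted changes of the other members are given without their p, none of which passed the threshold after adjustment.

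The helicase subunits Mcm2 to Mcm7, which form the ring that unwinds DNA, had a median change of 0.51, and 6 of 6 were higher at an unadjusted p under 0.05 (4 of 6 without 53371, with a median of 0.32). Mcm2 had 122, 281, 152, 157, 227 and 130.1 CPM in Cre cells and 91.7, 201, 83.8, 155, 191 and 42.5 CPM in parental cells. It was higher in Cre cells of every line, by 0.60 ± 0.18 (SE, limma adjusted p = 0.236), although the 53105 values differed by little. Mcm5 had 112, 208, 144, 140.2, 204 and 109 CPM in Cre cells and 82.1, 129.8, 77.6, 135, 177 and 22.6 CPM in parental cells. Mcm5, at chromosome 8 from 75109468 to 75128439 (GRCm38), was also higher in every line, with a change of 0.75 ± 0.24 (SE, limma adjusted p = 0.257). The ranges overlapped between groups in both genes, and parental 53371 had the lowest value of the 12 libraries. Mcm3 had a change of 0.65, Mcm4 of 0.41, Mcm6 of 0.43 and Mcm7 of 0.39. Mcm4 was lower in Cre cells of 52205 (158 against 171 CPM) and 53105. In parental 53371 the 6 subunits had between 22.6 CPM (Mcm5) and 79.5 CPM (Mcm6), against 109 CPM (Mcm5) to 189 CPM (Mcm4) in Cre 53371.

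Origin licensing genes had a median change of 0.33, and 4 of 5 were higher at an unadjusted p under 0.05 (1 of 5, Orc6, without 53371, with a median of 0.20). Orc6 had 46.4, 108, 73.4, 46.6, 112 and 53.8 CPM in Cre cells and 39.5, 85.8, 51.9, 44.6, 109 and 27.3 CPM in parental cells. This subunit of the origin recognition complex was higher in Cre cells of every line, by 0.35 ± 0.12 (SE, limma adjusted p = 0.265). Cdt1 had 83.1, 90.3, 68.4, 54.3, 122 and 54.3 CPM in Cre cells and 72.8, 58.6, 61.4, 54.7, 119.6 and 27.2 CPM in parental cells. The helicase loader Cdt1 was higher in 5 of 6 lines, with a change of 0.33 ± 0.13 (SE, limma adjusted p = 0.303), and was level in 53105. Cdc6, the ATPase that works with Cdt1, had the larger change of 0.88, and of 0.43 without 53371. In that line it had 34.9 CPM in Cre cells and 3.62 CPM in parental cells. Orc1, the subunit that leaves chromatin during the cycle in mammals, had a change of 0.32, and Gmnn, which encodes the Cdt1 inhibitor geminin, one of 0.32. Activator and inhibitor of licensing had estimates of one sign.

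Genes that turn the loaded helicase into an active one had a median change of 0.46, and 4 of 6 were higher at an unadjusted p under 0.05 (2 of 6, Mcm10 and Gins2, without 53371, with a median of 0.25). Gins2 had 41.2, 41.03, 37.2, 26.3, 49.1 and 35.3 CPM in Cre cells and 29.3, 32.4, 26.8, 25.6, 44.4 and 15.4 CPM in parental cells. It encodes a subunit of the GINS complex and was higher in Cre cells of every line, by 0.44 ± 0.14 (SE, limma adjusted p = 0.256). Mcm10 had 41.8, 53.0, 47.5, 37.1, 60.6 and 44.7 CPM in Cre cells and 32.3, 43.8, 24.7, 37.4, 48.4 and 6.30 CPM in parental cells. Mcm10, needed for origin firing, was higher in 5 of 6 lines with a change of 0.77 ± 0.31 (SE, limma adjusted p = 0.3), and of 0.38 without 53371. The 4 GINS subunits act as 1 complex, yet their estimates spread from 0.094 (Gins4) through 0.38 (Gins1) and 0.44 (Gins2) to 0.52 (Gins3). Gins4 had 54.6 CPM in Cre 53371 and 53.1 CPM in parental 53371, a fold of 1.03, while Gins3 differed 3.00-fold and Gins1 2.36-fold in the same line. The difference between these members was not tested. Cdc45, the helicase's partner, had a change of 0.48, and of 0.14 without 53371.

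**Figure D4:**
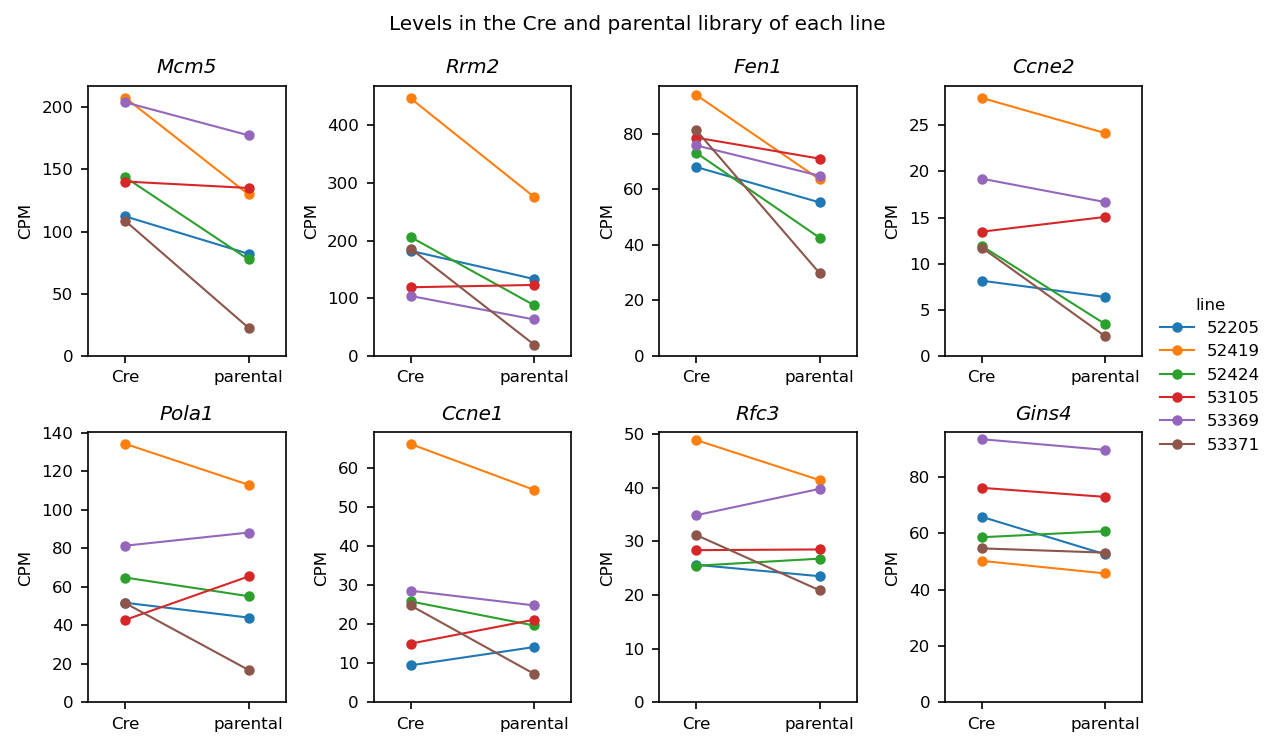
CPM of 8 of the genes in Cre cells (left) and parental cells (right), with each line joining the 2 libraries of a cell line on a linear axis from 0. Mcm5 and Fen1 are higher in Cre cells of every line, and Rrm2 and Ccne2 in every line except 53105. Gins4 is higher in every line except 52424, by 1.25-fold at most.

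Polymerase genes had a median change of 0.39, and 3 of 6 were higher at an unadjusted p under 0.05 (1 of 6, Pola2, without 53371, with a median of 0.19). Pola2 had 94.8, 115, 72.3, 53.6, 88.4 and 72.5 CPM in Cre cells and 65.0, 95.5, 41.1, 58.3, 81.4 and 38.0 CPM in parental cells. This accessory subunit of polymerase alpha was higher in 5 of 6 lines, by 0.42 ± 0.14 (SE, limma adjusted p = 0.257). Pold1 had 74.1, 97.7, 51.9, 85.3, 62.6 and 49.8 CPM in Cre cells and 54.1, 80.2, 45.4, 92.4, 58.3 and 27.7 CPM in parental cells. Pold1, the catalytic subunit of the lagging-strand polymerase delta, was higher in the same 5 lines, by 0.29 ± 0.12 (SE, limma adjusted p = 0.299). In 53105 both were lower in Cre cells. Pola1 had 51.7, 134, 64.8, 42.8, 81.3 and 51.6 CPM in Cre cells and 44.0, 113, 55.1, 65.3, 88.1 and 16.9 CPM in parental cells. Pola1, the catalytic subunit of polymerase alpha, was higher in 4 of 6 lines with a change of 0.26 ± 0.22 (SE, limma adjusted p = 0.596), and its estimate without 53371 was -0.0022. Its subunit partner Pola2 kept an estimate of 0.32 without 53371. Prim1, the primase, had a change of 0.65, and the polymerase epsilon genes Pole and Pole2 of 0.53 and 0.36. Without 53371 the estimates were 0.30 for Prim1, 0.15 for Pole and 0.21 for Pole2. Pole was lower in Cre cells of 52205, 53105 and 53369, and higher in the other 3 lines.

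The sliding clamp, its loader and the enzymes of the lagging strand had a median change of 0.40, and 4 of 6 were higher at an unadjusted p under 0.05 (3 of 6, Pcna, Fen1 and Lig1, without 53371, with a median of 0.23). Fen1 had 68.0, 94.0, 73.2, 78.6, 75.8 and 81.3 CPM in Cre cells and 55.3, 63.5, 42.5, 71.0, 64.9 and 29.8 CPM in parental cells. Fen1, the nuclease that trims Okazaki fragments, lies at chromosome 19 from 10199132 to 10204393 and had a change of 0.57 ± 0.16 (SE, limma adjusted p = 0.208). It was higher in every line, and of the 6 parental values only that of 53105 exceeded the lowest Cre value. Pcna had 108, 275, 124, 96.7, 113 and 122 CPM in Cre cells and 90.2, 223, 84.9, 101, 94.8 and 52.5 CPM in parental cells. Pcna, the clamp, was higher in 5 of 6 lines by 0.42 ± 0.14 (SE, limma adjusted p = 0.261), with 52419 far above the other lines in both groups. Rfc3 had 25.6, 48.9, 25.5, 28.4, 34.9 and 31.2 CPM in Cre cells and 23.5, 41.4, 26.8, 28.5, 39.8 and 20.9 CPM in parental cells. This clamp loader subunit was higher in 3 of 6 lines, with a change of 0.11 ± 0.11 (SE, limma adjusted p = 0.653). Rfc4 had a change of 0.22, Rfc5 of 0.38 and Lig1, the ligase that joins the fragments, of 0.53. The loader subunits lay below the median of the 41, and the nuclease and the ligase above it.

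Nucleotide synthesis genes had the highest role median, 0.58, and 4 of 4 were higher at an unadjusted p under 0.05, also without 53371. The rank of the role did not hold without that line, where its median was 0.28 and that of the helicase genes 0.32. Rrm2 had 182, 447, 206, 119, 104 and 186 CPM in Cre cells and 133, 276, 88.0, 123, 63.3 and 19.6 CPM in parental cells. Rrm2, the small subunit of ribonucleotide reductase and the one that limits its activity through the cycle, lies at chromosome 12 from 24708254 to 24714146. It had the largest change of the 41, 1.04 ± 0.34 (SE, limma adjusted p = 0.258), and was higher in 5 of 6 lines. In 53371 it was 9.29-fold higher in Cre cells and in 53369 1.64-fold higher, the largest difference of any member in that line. Tyms had 37.6, 117, 42.8, 35.1, 52.9 and 47.8 CPM in Cre cells and 34.4, 87.0, 27.4, 37.4, 44.0 and 12.4 CPM in parental cells. Tyms, thymidylate synthase, was higher in the same 5 lines by 0.54 ± 0.22 (SE, limma adjusted p = 0.306). Rrm1, the large subunit, had a smaller change of 0.50, and Tk1, the salvage enzyme thymidine kinase, one of 0.61. Without 53371 the estimates were 0.61 for Rrm2, 0.27 for Tyms, 0.24 for Rrm1 and 0.28 for Tk1. In 53105 each of these 4 genes was slightly lower in Cre cells, between -0.090 and -0.038 on the log2 scale.

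Cyclin E and E2F genes had a median change of 0.35, and 1 of 4 was higher at an unadjusted p under 0.05 (0 of 4 without 53371, with a median of 0.16). Ccne2 had 8.16, 27.97, 11.9, 13.5, 19.2 and 11.7 CPM in Cre cells and 6.38, 24.2, 3.44, 15.1, 16.7 and 2.13 CPM in parental cells. It was the 1 that passed, with a change of 0.74 ± 0.30 (SE, limma adjusted p = 0.303) and higher values in 5 of 6 lines. Ccne1 had 9.50, 66.2, 25.9, 15.1, 28.6 and 24.8 CPM in Cre cells and 14.2, 54.5, 19.7, 21.2, 24.9 and 7.33 CPM in parental cells. Ccne1, its close relative and likewise a partner of the kinase Cdk2, was higher in 4 of 6 lines, with a change of 0.25 ± 0.25 (SE, limma adjusted p = 0.654). In 52205 the pair went apart, with a log2 difference of 0.33 in Ccne2 and -0.56 in Ccne1. E2f2 had 10.2, 5.53, 10.4, 11.9, 9.64 and 8.37 CPM in Cre cells and 7.81, 5.28, 5.25, 12.5, 11.6 and 2.44 CPM in parental cells. E2f2, an activator of replication genes, was higher in 4 of 6 lines by 0.44 ± 0.23 (SE, limma adjusted p = 0.399). E2f1, the better known activator, had a change of 0.26, with higher values in 3 of 6 lines.

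Genes for chromatin assembly and histone mRNA had a median change of 0.50, and 2 of 4 were higher at an unadjusted p under 0.05 (2 of 4 without 53371, with a median of 0.27). Uhrf1 had 106, 289, 144, 101, 109.5 and 129 CPM in Cre cells and 84.2, 229, 53.9, 96.3, 100.3 and 30.9 CPM in parental cells. Uhrf1, which brings the maintenance DNA methyltransferase to new DNA, was higher in every line, by 0.72 ± 0.25 (SE, limma adjusted p = 0.27). Chaf1a had 78.1, 169, 113, 87.0, 94.0 and 110.4 CPM in Cre cells and 68.0, 124, 59.1, 86.0, 89.2 and 32.5 CPM in parental cells. Chaf1a, the large subunit of chromatin assembly factor 1, was higher in every line too, by 0.57 ± 0.21 (SE, limma adjusted p = 0.287). Its partner Chaf1b had a change of 0.43 and was lower in Cre cells of 53105 (40.3 against 46.6 CPM). Slbp, which binds the stem-loop of histone mRNAs, had one of 0.23.

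Per kilobase of the longest CCDS-tagged transcript in GENCODE M21, levels can be set between genes. Rrm2 had 94.6 ± 56.5 CPM per kb in Cre cells and 53.4 ± 40.1 in parental cells, and Pcna 92.2 ± 44.1 in Cre cells and 70.9 ± 38.9 in parental cells (SD, n = 6 each). These were the highest means in Cre cells, while in parental cells Pcna was followed by Mcm3, at 54.0 ± 22.3, ahead of Rrm2. E2f2 was lowest, at 1.97 ± 0.463 CPM per kb in Cre cells and 1.58 ± 0.829 in parental cells. The helicase genes sat between 45.2 ± 12.9 (Mcm5) and 77.5 ± 18.2 (Mcm3) CPM per kb in Cre cells, and neighbours in that order differed by less than their SD, except Mcm4 and Mcm3. Within GINS, Gins4 reached 49.2 ± 11.9 CPM per kb in Cre cells and Gins3 4.29 ± 1.54, a gap larger than either SD. Lig1 had no tagged transcript and was left out.

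Lists of related genes put these values in context, and their counts at an unadjusted p stand beside 6.96% of tested genes higher and 8.18% lower. Among 34 other replication factors 11 were higher at an unadjusted p under 0.05 and 1 was lower, with a median change of 0.24 (4 higher and 0 lower without 53371). The lower one, named after its value was seen, was Pold4, a small subunit of polymerase delta, with -0.50 ± 0.21 (limma adjusted p = 0.313), lower in 4 of 6 lines. Donson, a factor for helicase assembly, had a change of 0.63 ± 0.20 (limma adjusted p = 0.253) and was higher in 6 of 6 lines, as were the clamp loader genes Chtf18, with 0.54 ± 0.18 (limma adjusted p = 0.257), and Dscc1, with 0.84 ± 0.27 (limma adjusted p = 0.257). Among 15 other genes of nucleotide synthesis 7 were higher and 0 lower, with a median of 0.24 (2 higher without 53371). Mthfd1, an enzyme of folate metabolism, had a change of 0.44 ± 0.12 (limma adjusted p = 0.205) and was higher in 5 of 6, and the salvage kinase gene Dck one of 0.50 ± 0.19 (limma adjusted p = 0.294) in 4 of 6. Among 19 other G1/S regulators 4 were higher and 0 lower, with a median of 0.15 (2 higher without 53371). Skp2, which targets the inhibitor p27 for destruction, had a change of 0.43 ± 0.15 (limma adjusted p = 0.275) and was higher in 6 of 6 lines. Its partner Cks1b had one of 0.30 ± 0.11 (limma adjusted p = 0.275), higher in 5 of 6, and the repressor E2f7 one of 0.62 ± 0.24 (limma adjusted p = 0.295), higher in 4 of 6. The remaining 1 of the 4, also named after its value was seen, was the phosphatase gene Cdc25a, with 0.32 ± 0.14 (limma adjusted p = 0.317), higher in 4 of 6 lines. None of the 3 lists had a member past the adjusted threshold.

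Some inhibitors of the G1/S step had lower values in Cre cells. Of 7 inhibitors of cyclin-dependent kinases 0 were higher and 3 were lower at an unadjusted p under 0.05, with a list median of -0.062 (0.015 without 53371), against 6.96% of tested genes higher and 8.18% lower. Cdkn1a had 27.8, 39.0, 12.5, 16.3, 29.3 and 15.6 CPM in Cre cells and 31.4, 67.6, 33.2, 21.1, 30.8 and 28.4 CPM in parental cells. Cdkn1a, which encodes p21, was lower in Cre cells of every line, with a change of -0.60 ± 0.17 (limma adjusted p = 0.209) and of -0.55 without 53371. DESeq2 gave it an adjusted p of 0.0467, under the threshold, while limma and edgeR did not call it. DESeq2 called 1.63% of tested genes lower. Cdkn2b had 251, 97.8, 170.3, 218, 264 and 226 CPM in Cre cells and 298, 127, 269, 221, 297 and 467 CPM in parental cells. Cdkn2b, which encodes p15, was also lower in every line, by a change of -0.42 ± 0.13 (limma adjusted p = 0.242), with its highest value in parental 53371. Cdkn2a, at the neighbouring locus, had a change of -0.27 ± 0.11 (limma adjusted p = 0.31) and was lower in 5 of 6 lines. The inhibitors did not all share the lower values: 2 of the 7 had an estimate above 0 (49.9% of tested genes). Without 53371 it was 4 of the 7 (51.0% of tested genes). Cdkn1a in parental 53371, at 28.4 CPM, lay within the range of the other parental libraries. Over the 7 inhibitors the median log2 level of parental 53371 differed by -0.13 from the median of the other parental libraries. Any relation of inhibitor levels to the replication genes was not tested.

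Of 10 genes that restrain growth or mark exit from the cycle 0 were higher and 2 were lower at an unadjusted p under 0.05, with a median of -0.057. The shares of tested genes were 6.96% higher and 8.18% lower. Gas1 had 6.18, 31.7, 2.84, 52.7, 169 and 7.78 CPM in Cre cells and 27.3, 52.8, 3.70, 97.0, 258 and 26.2 CPM in parental cells. Gas1, first described as a growth-arrest gene of fibroblasts, was lower in every line, with a change of -1.05 ± 0.21 (limma adjusted p = 0.14), and DESeq2 called it with an adjusted p of 0.000231. Ccng2 had a change of -0.30 ± 0.10 (limma adjusted p = 0.264), lower in 5 of 6 lines, and Btg1 of -0.17 ± 0.092 (limma adjusted p = 0.406), lower in 4 of 6.

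The 30 mitosis genes are the nearest comparison, since their products act later in the same cycle. The replication genes had a median change of 0.43 and the mitosis genes one of 0.66, and 16 of the 30 were higher at an unadjusted p under 0.05. In 53371 the median was 1.55 for replication and 2.50 for mitosis, and 30 of 30 mitosis genes were over 2-fold higher in Cre cells. Without 53371 the medians were 0.24 for replication and 0.29 for mitosis, and 19 mitosis genes were then higher with an unadjusted p under 0.05. The medians were 0.28 for replication and 0.40 for mitosis in 52205, and 0.61 for replication and 0.70 for mitosis in 52424. They were 0.30 for replication and 0.28 for mitosis in 52419, and 0.10 for replication and 0.12 for mitosis in 53369. In 53105 they were -0.038 for replication and -0.098 for mitosis. The difference between the lists was not tested. Cdc20, the activator of the anaphase-promoting complex, had a change of 0.65 ± 0.22 (limma adjusted p = 0.258) and was higher in 6 of 6 lines, as was the kinesin gene Kif20a, with 0.86 ± 0.30 (limma adjusted p = 0.276). Kif23, a kinesin of the midbody, had one of 0.54 ± 0.18 (limma adjusted p = 0.262) and was higher in 5 of 6. Parental 53371 was the lowest of the 12 libraries for 30 of 30 mitosis genes.

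**Figure D5:**
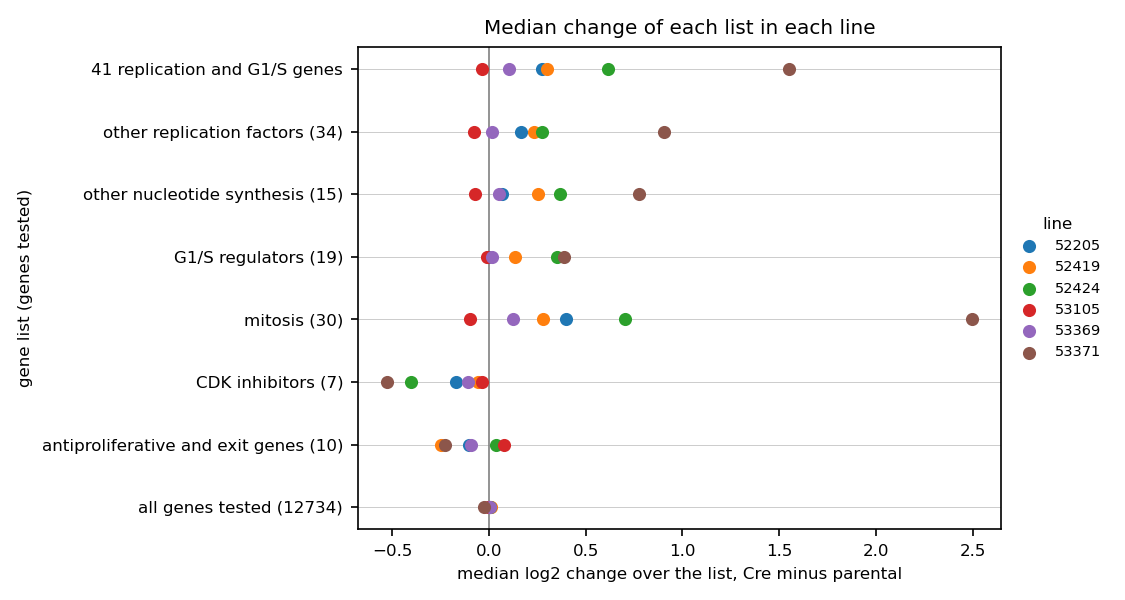
Median log2 difference, Cre minus parental, of each gene list (rows, with the number of genes tested) in each of the 6 lines (coloured points). The 41 genes, the mitosis genes, the other replication factors, the other nucleotide synthesis genes and the G1/S regulators each have 53371 at the right and 53105 at the left, and all genes tested lie near 0.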

How the data were processed

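Poly(A)-selected RNA was sequenced, per the labels' protocols, from 6 Cre and 6 parental cultures. FastQC 0.11.9, then featureCounts and edgeR, with the builds GRCm38 and mm10, are listed in the submitters' processing notes; no aligner is given in the sources used here. Signal values per gene were deposited by the authors, scaled to library size (CPM). All were whole multiples of 1 read (tolerance 0.01), so reads could be recovered by division. A second deposited table holds log2 values for 10903 genes and served as an alternative.

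Genes with at least 1 CPM in at least 6 libraries (12734 of 20432) were fitted with limma-trend (limma 3.58.1, R 4.3.3) on log2(CPM + 0.5), with the cell line as a block, and p-values were adjusted by Benjamini-Hochberg. This scale understates changes of low genes. Labels pair the libraries by line, and deviations from group means correlated at 0.73 to 0.95 within pairs. edgeR 4.0.16 and DESeq2 1.42.0 tested the recovered reads as alternatives. Entrez identifiers were named from RefSeq (GRCm38), and counting without strand cannot separate overlapping antisense genes. The fit was also run on simulated data in which a changed gene had the same change in every line. That run does not speak to changes that differ between lines. Members, lists and tests were chosen with earlier results of these data known. In each role the 2 members with the smallest p, and the 3 members with the largest p among all 41, have all 12 values printed, and of each related list the 3 genes with the smallest p are named, except 1 gene that is not reported here, although counts of lists include it. Any other gene was named after its values were seen.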

Additional observations from a re-analysis of the deposited data

Results flagged for a closer look

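Dixon's test at 95% was applied to 178 groups of 6 values (Cre levels, parental levels and log2 differences per line of the named genes), and 21 held an extreme value past its limit. Chance gives about 1 in 20 groups when groups are independent. These groups are not, since the genes share libraries and the differences are made from the levels. The count of 21 can therefore not be set against that rate.

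In parental 53371 the CPM lay apart from the other parental libraries for Mcm3 (46.3), Mcm4 (79.0), Cdc6 (3.62), Mcm10 (6.30) and the related gene Donson (5.99), each at the low end. The log2 difference in 53371 lay apart from those of the other lines for Mcm10 (2.73), Cdc45 (2.18), Pole (2.39), Rfc5 (1.33), Lig1 (1.77), Rrm1 (1.81), Tyms (1.91), Tk1 (2.24) and the mitosis gene Cdc20 (2.01), each at the high end. In Cre 52419 the CPM lay above the other Cre libraries for Pcna (275), Rrm1 (422), Tyms (117), Uhrf1 (289) and Slbp (127). Orc1 in Cre 53105 (9.37) lay below the other Cre libraries, and the related gene Dscc1 in Cre 53369 (45.9) lay above them, a line in which parental cells had a like level of 45.1 CPM.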

How the results depend on the processing

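Across the 18 settings tried, no member passed the adjusted threshold in either direction, and the median change of the 41 genes stayed above 0, between 0.18 and 0.54. The count of members higher at an unadjusted p under 0.05, 28 as reported, was 1 without the replicate block, 18 with library weights, 12 to 29 with each pair left out in turn (12 without 52424, 17 without 52419 and 17 without 53371), and 8 without lines 52424 and 53371, the last chosen after seeing the data. The count of members higher in all pairs, 10 as reported, was 10 to 30 with each pair left out, the 30 without 53105. For these counts the shares of tested genes were computed only for the main setting and without 53371. Over left-out pairs Pola1 ran from -0.0022 to 0.44 and Ccne1 from -0.034 to 0.42. Estimates below 0 were Pola1 at -0.0022 without 53371 and -0.061 without 52424 and 53371, Ccne1 at -0.034 and -0.14, and E2f1 at -0.030 without both. DESeq2 called Cdkn1a (-0.61) and Gas1 (-1.09) lower. The cause of these differences between settings was not tested. Fits with a pair left out also have fewer residual degrees of freedom. Counts of pairs do not depend on filters, weights or tests, so they were recomputed only for other scalings, the deposited log2 table and left-out pairs. The lowest member value, Ccne2 in parental 53371, rested on 27 reads, and the part of depth in the results was not tested.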

Other observations

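Line 52419 stood at the low end of the epithelial markers, with summed CPM of 359.9 in Cre cells and 445 in parental cells. Line 53369 was the other line low in these markers, with 1944 in Cre cells and 1766 in parental cells, and high in fibroblast markers, with 1265 in Cre cells and 2173 in parental cells. The replication genes took 0.369% of reads in Cre 53369 and 0.338% in parental 53369. No relation between marker levels and replication genes was tested.

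Among related lists, E2F words lay in promoter windows of 42.9% of the G1/S regulators with a window, 28.6% of other replication factors and 8.33% of other genes of nucleotide synthesis.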
